A study of Mus musculus with 6 samples.

Results

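The genes described here are those of the MAP kinase cascades and of their feedback inhibitors, the dual-specificity phosphatases (Dusp) and the Sprouty and Spred proteins. The rule that takes them uses gene names and no measured change, but the members were chosen with earlier results of these data known. A probe set belonged when the platform annotation gave it exactly 1 gene symbol and that symbol was a numbered Mapk, Map2k, Map3k, Map4k or Dusp gene, a Spry gene or a Spred gene. Each gene was represented by its probe set of highest mean log2 value over all arrays. The rule found 63 genes among the 17097 tested, of which 34 encode kinases, 22 dual-specificity phosphatases and 7 Sprouty or Spred proteins. Mapk3, Mapk11, Map2k7 and Dusp5 were not analysed here.

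A MAP kinase cascade is a relay of kinases. A MAP3K phosphorylates a MAP2K, the MAP2K phosphorylates a MAP kinase of the ERK, JNK or p38 type, and MAP4Ks act above the MAP3Ks. In T cells the antigen receptor starts the ERK branch through Ras, and costimulation and stress feed the JNK and p38 branches. Dual-specificity phosphatases remove the activating phosphates, and many of their genes are switched on by the cascade they shut off. Sprouty and Spred proteins restrain the step from Ras to ERK. The arrays measured transcripts, and the activity of a kinase depends on its phosphorylation, which was not measured.

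The samples were 6 cultures of CD4-positive T cells of female C57BL/6 mice, from which CD25-positive cells had been removed, each hybridised to 1 array. Every well was coated with 2 µg/ml of anti-CD3 (clone 2C11), an antibody that engages the T cell receptor complex. The anti-CD3 wells carried IgG control protein besides. The B7-2 wells carried IgG and rB7-2.Fc at 3 µg/ml, a fusion protein of the CD28 and CTLA-4 ligand B7-2. The BTNL2 wells carried rB7-2.Fc at 3 µg/ml and rBTNL2.Fc at 11 µg/ml, a fusion protein of BTNL2, which is related to butyrophilins and to B7 proteins. All cultures lasted 4 days with IL-2 (10 ng/ml) and TGF-beta (0.36 ng/ml), so every level is a late state rather than an early response. One label names spleen as the source and another spleen and lymph nodes, and the labels do not state whether duplicate cultures had separate mice as their source. A p-value here reflects just how far these cultures lay apart, which may be technical, and 2 arrays per group limit the precision of every value.

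Values are RMA intensities on a linear scale. Changes are log2 differences with their standard error from limma, and a gene was called higher or lower at a Benjamini-Hochberg adjusted p under 0.05 over all 17097 genes. Array medians were 18.4 to 18.8, and the 95th percentile of 23 nonspecific control probe sets was 4.83 to 5.53. On each array 62 or 63 of the 63 members read above that percentile. The mean log2 of 12 members lay under the 40th percentile over probe sets, and values of dim members rest on signal close to background. In RNA of a whole culture, fewer cells of a type and less RNA per cell cannot be told apart.

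In the B7-2 wells 20 of the 63 members (31.7%) were called against the anti-CD3 wells, 11 higher and 9 lower, where 24.5% of all genes were called (11.2% higher, 13.3% lower). Adding BTNL2 to B7-2 changed 19 members (30.2%), 6 higher and 13 lower, where 20.4% of all genes were called (9.52% higher, 10.8% lower). Between the BTNL2 and the anti-CD3 wells 28 members (44.4%) were called, 10 higher and 18 lower, against 30.4% of all genes (14.2% higher, 16.2% lower). With dim genes left out the shares lay closer together, at 41.2%, 39.2% and 56.9% of 51 members and 38.8%, 32.4% and 45.7% of 11881 genes. Over the 63 members the median log2 change was 0.01, -0.11 and -0.08 in the 3 comparisons, beside -0.0048, -0.01 and -0.0046 over all genes. At 2-fold or more, 3, 6 and 6 members were called, beside 3.88%, 5.19% and 7.15% of all genes. The arrays of the groups did not overlap for 38, 44 and 48 of the 63 members (60.3%, 69.8% and 76.2%), beside 60.1%, 58.9% and 63% of all genes, so a lack of overlap alone is common here. In all, 33 members were called in at least 1 comparison and 30 in none.

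The 3 comparisons share arrays, so a gene high in the B7-2 wells alone appears in the first and the second. Leaving out 1 array lowered the counts to between 13 and 15, 14 and 19, and 20 and 25 members, while the share of all genes fell to 14.4% to 15.9%, 12.5% to 16.4% and 21.8% to 24.9%. With BTNL2 against B7-2 the 6 higher calls became 2 when the first B7-2 array was dropped, 4 when the second was dropped and 3 when the first BTNL2 array was dropped. Calls held without any 1 array for 13 of 20, 14 of 19 and 19 of 28 members.

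The MAP kinases themselves changed little, with p38 gamma (Mapk12) as the exception. Mapk12 read 37.95 and 44.0 in the anti-CD3 wells, 71.5 and 74.1 in the B7-2 wells and 15.97 and 16.8 in the BTNL2 wells. The B7-2 wells were highest and the BTNL2 wells lowest, with no overlap between any of the groups. Mapk12 was 1.78-fold higher with B7-2 (log2 change 0.83 ± 0.10, adjusted p = 0.00171), and BTNL2 lowered it 4.45-fold from there (-2.15 ± 0.10, adjusted p = 3.15e-05). It ended 2.5-fold below the anti-CD3 wells (-1.32 ± 0.10, adjusted p = 0.000147). Its values in the BTNL2 wells lay under the medians of those arrays (18.7 and 18.5), so both of these folds rest on low signal. Over the other settings its change from B7-2 to BTNL2 was -2.19 to -1.46.

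Mapk14 encodes p38 alpha, the widely expressed p38 kinase. It read 1757 and 1810 in the anti-CD3 wells, 1538 and 1374 in the B7-2 wells and 1301 and 1265 in the BTNL2 wells. The groups did not overlap, and only the BTNL2 wells passed the test against the anti-CD3 wells (log2 change -0.48 ± 0.09, adjusted p = 0.00800). Without the second anti-CD3 array that adjusted p was 0.0507, and with the mean of its probe sets the change was -0.11 (adjusted p = 0.416). Its change with B7-2 (-0.30, adjusted p = 0.0622) was called in 4 other settings (adjusted p = 0.00225 to 0.0444). Mapk13 (p38 delta) read 30.0 to 39.5 on the 6 arrays and passed in no comparison.

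No ERK-type or JNK-type gene passed with B7-2, and none passed with BTNL2 against B7-2. The log2 changes of the 4 ERK-type members (Mapk4, Mapk6, Mapk7, Mapk15) were -0.06 to 0.23 with B7-2 and -0.28 to 0.21 with BTNL2. Those of the JNK genes Mapk8, Mapk9 and Mapk10 were -0.19 to 0.05 and -0.03 to 0.30. Between the BTNL2 and anti-CD3 wells, other probe sets of Mapk8 (0.61, adjusted p = 0.0153) and Mapk9 (0.32, adjusted p = 0.0418) were called higher. The Mapk8 set was dim, at 7.97 to 14.2. Mapk6 (ERK3, an atypical ERK) was called against the anti-CD3 wells, where it read 597 and 480 beside 752 and 708 in the BTNL2 wells (log2 change 0.45 ± 0.13, adjusted p = 0.0353). That call was lost without any of 3 arrays (adjusted p = 0.0843 to 0.181) and with the mean of its probe sets.

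**Figure D1:**
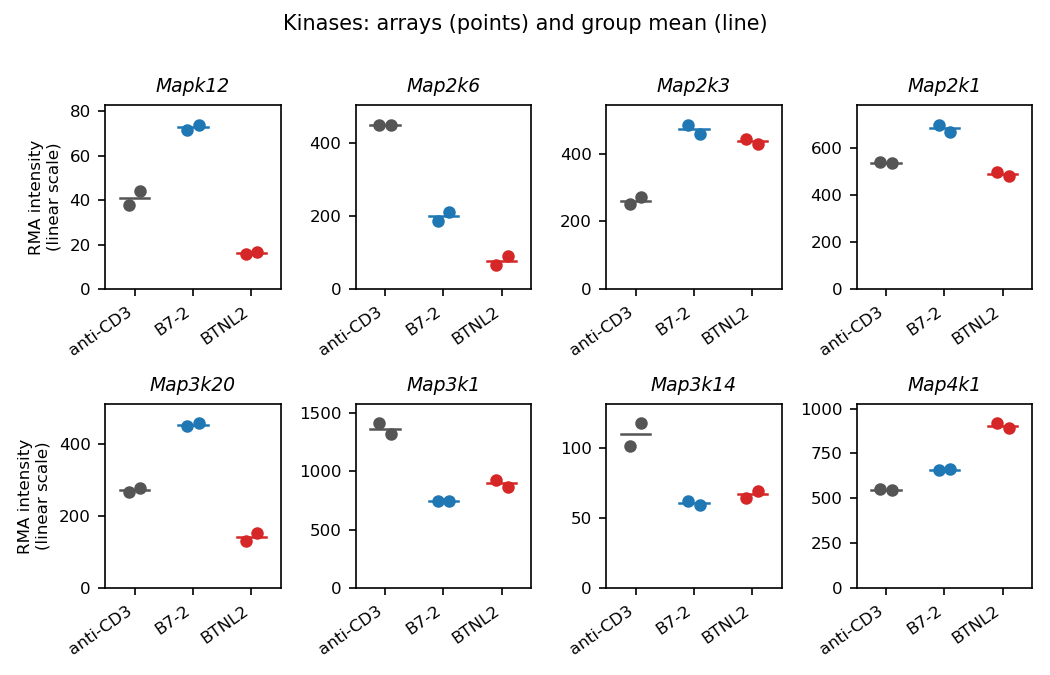
RMA intensity on a linear axis from 0 for 8 kinase genes, with 1 point per array, 2 arrays per group, and a line at the group mean. Mapk12 and Map3k20 are highest in the B7-2 wells and lowest in the BTNL2 wells, and Map2k6 falls from 450 and 447 in the anti-CD3 wells to 65.1 and 90.0 in the BTNL2 wells.

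Map2k3 and Map2k6, whose products activate p38, changed in opposite directions with B7-2. Map2k6 (MKK6) read 450 and 447 in the anti-CD3 wells, 187 and 211 in the B7-2 wells and 65.1 and 90.0 in the BTNL2 wells. Each coating lowered it: 2.26-fold with B7-2 (log2 change -1.17 ± 0.16, adjusted p = 0.00224) and a further 2.59-fold with BTNL2 (-1.37 ± 0.16, adjusted p = 0.00106). Between the outer groups it fell 5.86-fold (adjusted p = 5.84e-05), the largest fall of any of the 63 members in that comparison.

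Map2k3 (MKK3) read 251 and 272 in the anti-CD3 wells, 485 and 456 in the B7-2 wells and 443 and 429 in the BTNL2 wells. It rose 1.8-fold with B7-2 (log2 change 0.85 ± 0.09, adjusted p = 0.00105) and stayed 1.67-fold above the anti-CD3 wells with BTNL2 (0.74 ± 0.09, adjusted p = 0.00102). The step from B7-2 to BTNL2 did not pass (-0.11 ± 0.09, adjusted p = 0.464). Its other probe set was called in the same comparisons and directions (0.63 and 0.43).

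Map2k1 encodes MEK1, which phosphorylates ERK. It read 542 and 536, 701 and 667, and 497 and 483 in the anti-CD3, B7-2 and BTNL2 wells, highest in the B7-2 wells. The rise of 1.27-fold with B7-2 (log2 change 0.34 ± 0.09, adjusted p = 0.0257) was lost without any 1 of the 4 arrays (adjusted p = 0.0726 to 0.126). The fall of 1.4-fold with BTNL2 (-0.48 ± 0.09, adjusted p = 0.00782) was lost only without the first B7-2 array (adjusted p = 0.0518). Map2k2 (MEK2) passed in no comparison, with values of 418 to 513.

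The other MAP2K genes moved less. Map2k5 (MEK5, of the ERK5 branch) was called only between the BTNL2 and anti-CD3 wells (log2 change -0.40 ± 0.09, adjusted p = 0.0140). That call was lost without any of 3 arrays (adjusted p = 0.0541 to 0.0888) and with the mean of its probe sets. Map2k4 (MKK4, which feeds JNK and p38) passed in none, at log2 changes of 0.10, 0.16 and 0.26. Its other probe set was called with B7-2 and between the outer groups (0.56 and 0.57).

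Among 15 MAP3K genes, 1 rose and 4 fell with B7-2 (33.3%, beside 24.5% of all genes). With BTNL2 against B7-2, 2 rose and 2 fell (26.7%, beside 20.4%). The largest change of a MAP3K gene with BTNL2 was that of Map3k20 (ZAK), a kinase activated by stalled ribosomes and other stress. It read 267 and 280 in the anti-CD3 wells, 452 and 459 in the B7-2 wells and 130 and 153 in the BTNL2 wells, the same order of groups as Mapk12. B7-2 raised it 1.67-fold (log2 change 0.74 ± 0.10, adjusted p = 0.00284), and BTNL2 lowered it 3.23-fold (-1.69 ± 0.10, adjusted p = 7.39e-05). Its other probe sets were called in the same directions, with -1.06 and -0.84 for BTNL2.

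Map3k1 (MEKK1, upstream of JNK) and Map3k14 (NIK, the kinase of noncanonical NF-kappaB signalling) fell with B7-2 and stayed low. Map3k1 read 1408 and 1313 in the anti-CD3 wells, 744 and 748 in the B7-2 wells and 928 and 864 in the BTNL2 wells. Its log2 change was -0.87 ± 0.09 with B7-2 (adjusted p = 0.000951) and 0.26 ± 0.09 with BTNL2 (adjusted p = 0.0878). Map3k14 read 102 and 118, 62.5 and 59.7, and 64.2 and 69.6, a fall of 1.79-fold with B7-2 (adjusted p = 0.00181). Both remained called below the anti-CD3 wells with BTNL2 (-0.60 ± 0.09, adjusted p = 0.00236, and -0.71 ± 0.11, adjusted p = 0.00226). The other, dimmer probe set of Map3k14 was called neither with B7-2 (-0.24, adjusted p = 0.142) nor between the outer groups (-0.23, adjusted p = 0.139).

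Smaller changes of MAP3K genes were less stable. Map3k5 (ASK1, a kinase of oxidative stress) fell with B7-2 (log2 change -0.39 ± 0.09, adjusted p = 0.0188), and Map3k2 (MEKK2) fell with B7-2 (-0.45 ± 0.13, adjusted p = 0.0449) and rose with BTNL2 (0.46 ± 0.13, adjusted p = 0.0480). Map3k7 (TAK1, which joins cytokine receptors to JNK, p38 and NF-kappaB) rose with BTNL2 from 1055 and 1038 to 1398 and 1373 (0.40 ± 0.08, adjusted p = 0.0150). Each of these calls was lost without at least 3 of the 4 arrays compared, at adjusted p-values of 0.0626 to 0.191. Map3k6 (ASK2) kept its fall with BTNL2 without any 1 array, from 32.9 and 32.0 to 22.9 and 23.7 (-0.48 ± 0.08, adjusted p = 0.00754).

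Of the 3 MAP4K genes, Map4k1 encodes HPK1, a kinase that restrains T cell receptor signalling. It read 551 and 548 in the anti-CD3 wells, 657 and 662 in the B7-2 wells and 917 and 891 in the BTNL2 wells, without overlap. The step to BTNL2 was 1.37-fold (log2 change 0.46 ± 0.08, adjusted p = 0.00878; adjusted p = 0.0502 without the first B7-2 array), and the BTNL2 wells were 1.65-fold above the anti-CD3 wells (0.72 ± 0.08, adjusted p = 0.000759). Map4k4 fell 1.59-fold with B7-2, from 554 and 570 to 372 and 336 (adjusted p = 0.00376), and read 359 and 321 with BTNL2. Map4k5 passed in no comparison with all arrays, and was called between the outer groups without the first anti-CD3 array (-0.61, adjusted p = 0.0259).

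**Figure D2:**
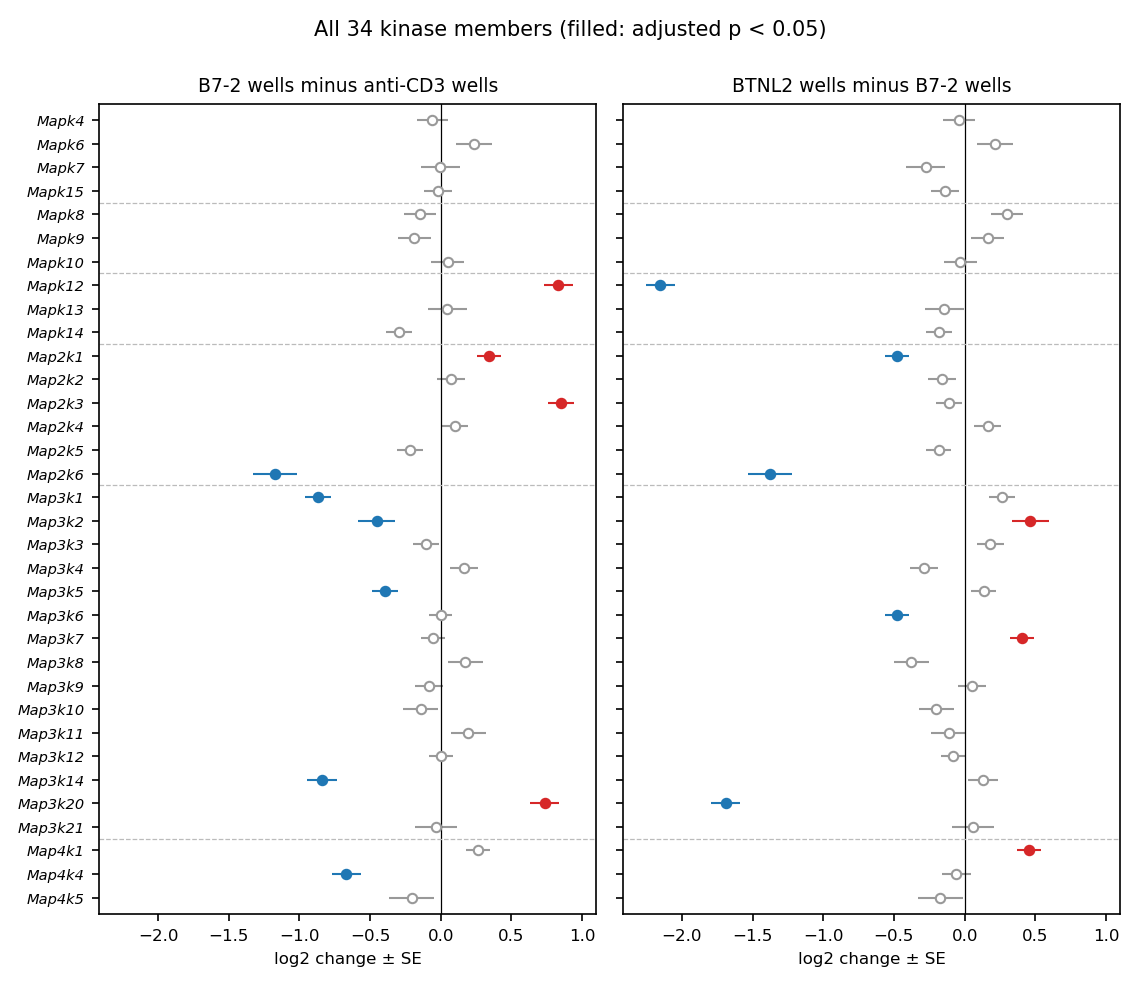
Log2 change ± SE (x axis) of all 34 kinase members (y axis), for the B7-2 wells minus the anti-CD3 wells on the left and the BTNL2 wells minus the B7-2 wells on the right. Filled points passed an adjusted p of 0.05 (red higher, blue lower), open points did not, and dashed lines separate ERK-type, JNK-type, p38-type, MAP2K, MAP3K and MAP4K genes: 10 points are filled on the left and 8 on the right.

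By count, 10 of 34 kinase genes were called with B7-2 (29.4%), 8 with BTNL2 against B7-2 (23.5%) and 13 between the BTNL2 and anti-CD3 wells (38.2%), shares near those of all genes given above. The median log2 change of the kinases was -0.03, -0.10 and -0.11. Map3k3, Map3k4, Map3k8, Map3k9, Map3k10, Map3k11, Map3k12 and Map3k21 passed in no comparison, at log2 changes between -0.38 and 0.19. Another probe set of Map3k12 was called lower with BTNL2 against B7-2 (-0.34, adjusted p = 0.0426). Without the first B7-2 array 4 kinase genes were called with BTNL2 in place of 8, and of the 3 higher calls 0 were left. Without the second B7-2 array or the first BTNL2 array 1 higher call was left.

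The largest change of the 63 members was the rise of Dusp10 with BTNL2. Dusp10 (MKP5) dephosphorylates JNK and p38 and restrains effector cytokine production by T cells. It read 253 and 220 in the anti-CD3 wells, 123 and 128 in the B7-2 wells and 882 and 845 in the BTNL2 wells. B7-2 lowered it 1.88-fold (log2 change -0.91 ± 0.10, adjusted p = 0.00117), and the BTNL2 wells stood 6.89-fold above the B7-2 wells (2.78 ± 0.10, adjusted p = 1.18e-05) and 3.66-fold above the anti-CD3 wells (1.87 ± 0.10, adjusted p = 3.81e-05). Its other, dimmer probe set also rose, by 1.44 and 1.15, and was not called with B7-2 (-0.29, adjusted p = 0.182).

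Dusp16 (MKP7), another phosphatase of JNK and p38, moved the other way. It read 952 and 1168 in the anti-CD3 wells, 1018 and 863 in the B7-2 wells and 250 and 216 in the BTNL2 wells. The anti-CD3 and B7-2 wells overlapped, and both BTNL2 arrays lay far below them. The fall was 4.03-fold from B7-2 (log2 change -2.01 ± 0.14, adjusted p = 0.000131) and 4.53-fold against the anti-CD3 wells (-2.18 ± 0.14, adjusted p = 7.23e-05). Its other probe set, near background at 6.95 to 16.6, was called lower in both comparisons (-0.89 and -0.57).

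The phosphatase genes of rapid induction, Dusp1 and Dusp2, rose with BTNL2. Dusp2 (PAC-1), a nuclear phosphatase first known from activated T cells, read 107 and 99.6 in the anti-CD3 wells, 130 and 131 in the B7-2 wells and 191 and 192 in the BTNL2 wells. It rose at each step, 1.27-fold with B7-2 (log2 change 0.34 ± 0.09, adjusted p = 0.0279) and 1.46-fold with BTNL2 (0.55 ± 0.09, adjusted p = 0.00475). The first step was lost without any 1 of the 4 arrays (adjusted p = 0.0702 to 0.143).

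Dusp1 (MKP-1) read 417 and 279, 338 and 350, and 691 and 519 in the anti-CD3, B7-2 and BTNL2 wells. The BTNL2 arrays were the 2 highest, 1.74-fold above the B7-2 wells (log2 change 0.80 ± 0.21, adjusted p = 0.0353). That call was lost without either B7-2 array or the first BTNL2 array (adjusted p = 0.100 to 0.178), and the call against the anti-CD3 wells without the second anti-CD3 array or the first BTNL2 array (adjusted p = 0.103 and 0.126).

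Dusp4 and Dusp6 read highest in the B7-2 wells and fell with BTNL2. Dusp4 (MKP-2), a nuclear phosphatase induced by ERK, read 318 and 355 in the anti-CD3 wells, 697 and 682 in the B7-2 wells and 398 and 460 in the BTNL2 wells. It rose 2.05-fold with B7-2 (log2 change 1.04 ± 0.11, adjusted p = 0.000946), the largest rise of a member in that comparison, and fell 1.61-fold with BTNL2 (-0.69 ± 0.11, adjusted p = 0.00472). Against the anti-CD3 wells the BTNL2 wells were 1.28-fold higher (0.35 ± 0.11, adjusted p = 0.0466). That last call was lost without either anti-CD3 array or the second BTNL2 array (adjusted p = 0.0713 to 0.220).

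Dusp6 (MKP-3) is the cytoplasmic phosphatase specific for ERK and a standard readout of ERK signalling. It read 353 and 354 in the anti-CD3 wells, 452 and 478 in the B7-2 wells and 225 and 298 in the BTNL2 wells, without overlap between groups. The fall with BTNL2 was 1.8-fold (log2 change -0.85 ± 0.14, adjusted p = 0.00545) and held without any 1 array. The rise with B7-2 did not pass (0.40 ± 0.14, adjusted p = 0.0810), but did when the variance prior followed intensity (adjusted p = 0.0151) or with only the 4 arrays compared (adjusted p = 0.0236). The level below the anti-CD3 wells (-0.45 ± 0.14, adjusted p = 0.0459) was no longer called without either anti-CD3 array or the first BTNL2 array (adjusted p = 0.145 to 0.166).

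The remaining MAP kinase phosphatases were dim or changed little. Dusp9 (MKP-4) rose from 14.3 and 13.9 to 25.01 and 20.3 with B7-2 (log2 change 0.68 ± 0.12, adjusted p = 0.00592). Another Dusp9 probe set was called higher too (0.56, adjusted p = 0.0469), and a further set of like brightness was not (0.04, adjusted p = 0.836). The fall of Dusp9 with BTNL2 did not pass (-0.39 ± 0.12, adjusted p = 0.0561). That fall was called without the second B7-2 array (-0.54, adjusted p = 0.0261), with dim genes left out (adjusted p = 0.0394) and after a repeated quantile normalization (adjusted p = 0.0482). Dusp7 (an ERK phosphatase, 109 to 151 on the 6 arrays) and Dusp8 (8.82 to 13.7) passed in no comparison. Of the 9 MAP kinase phosphatases, 3 rose and 1 fell with B7-2 (44.4%, beside 24.5% of all genes). With BTNL2 against B7-2, 3 rose and 3 fell (66.7%, beside 20.4%), and no test of these differences was made.

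The promoters of 6 of these genes follow, the 3 phosphatases that rose with BTNL2 and then 3 feedback inhibitors that fell, so that the groups can be read side by side. Each is the 250 bases before the RefSeq transcription start in build GRCm38.p6, printed 5′ to 3′ on the gene's strand in lower case. The deposited table names no build, and genes were matched by symbol. Capitals mark TGACG, the core of the cyclic AMP response element, on either strand.
Dusp1, chr17:26508473-26508722, minus strand: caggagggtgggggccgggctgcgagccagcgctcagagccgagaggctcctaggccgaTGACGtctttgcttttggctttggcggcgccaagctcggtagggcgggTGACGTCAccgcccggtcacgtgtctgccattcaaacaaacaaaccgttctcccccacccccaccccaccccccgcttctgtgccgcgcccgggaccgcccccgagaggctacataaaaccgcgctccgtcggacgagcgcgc
Dusp2, chr2:127335909-127336158, plus strand: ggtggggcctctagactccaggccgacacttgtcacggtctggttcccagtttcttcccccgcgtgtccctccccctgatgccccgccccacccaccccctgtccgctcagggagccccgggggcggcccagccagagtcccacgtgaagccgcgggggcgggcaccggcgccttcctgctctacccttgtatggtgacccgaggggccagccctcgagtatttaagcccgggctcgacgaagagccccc
Dusp10, chr1:184034131-184034380, plus strand: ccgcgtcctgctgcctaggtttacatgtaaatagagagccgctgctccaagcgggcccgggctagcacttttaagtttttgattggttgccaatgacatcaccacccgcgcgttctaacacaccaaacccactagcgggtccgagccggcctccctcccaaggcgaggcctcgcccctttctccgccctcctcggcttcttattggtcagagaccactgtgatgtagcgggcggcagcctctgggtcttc
Dusp16, chr6:134792629-134792878, minus strand: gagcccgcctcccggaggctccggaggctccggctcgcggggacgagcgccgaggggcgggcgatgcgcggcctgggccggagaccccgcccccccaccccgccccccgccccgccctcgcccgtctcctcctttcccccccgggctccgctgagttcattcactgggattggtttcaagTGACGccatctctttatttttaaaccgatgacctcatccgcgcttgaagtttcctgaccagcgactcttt
Dusp6, chr10:99262981-99263230, plus strand: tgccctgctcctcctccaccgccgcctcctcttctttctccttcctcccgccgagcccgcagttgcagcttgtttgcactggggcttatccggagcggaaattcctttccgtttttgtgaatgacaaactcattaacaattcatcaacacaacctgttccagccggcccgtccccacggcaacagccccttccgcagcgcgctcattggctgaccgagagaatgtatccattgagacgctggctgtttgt
Spry1, chr3:37639697-37639946, plus strand: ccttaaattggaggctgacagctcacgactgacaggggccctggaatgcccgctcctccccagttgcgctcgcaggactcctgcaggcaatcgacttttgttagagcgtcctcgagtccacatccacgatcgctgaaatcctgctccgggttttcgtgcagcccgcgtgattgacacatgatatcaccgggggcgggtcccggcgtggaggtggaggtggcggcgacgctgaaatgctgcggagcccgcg

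The Dusp1 window held 3 matches, 2 of them facing each other in a full palindromic element, and the Dusp16 window held 1. No match lay in the other windows. TGACG occurred in 17.8% of 32851 RefSeq promoter windows of this length and in 17 of 64 windows (26.6%) of the 50 members that the table lists. The AP-1 letters TGANTCA and the ETS core GGAAGT, read on both strands, occurred in none of the 6 windows, in 6.75% and 19.7% of all windows and in 4.69% and 9.38% of the members' windows. A match shows only that the letters are there.

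Of the 13 dual-specificity phosphatases that are not classical MAP kinase phosphatases, 3 fell and 0 rose with BTNL2 against B7-2 (23.1%, beside 20.4% of all genes), and 1 of them fell by 2-fold or more. Dusp3 (VHR, a small phosphatase of ERK and JNK) read 68.9 and 59.0 in the anti-CD3 wells, 108 and 109 in the B7-2 wells and 27.2 and 29.9 in the BTNL2 wells. It rose 1.7-fold with B7-2 (log2 change 0.77 ± 0.11, adjusted p = 0.00272) and fell 3.81-fold with BTNL2 (-1.93 ± 0.11, adjusted p = 5.44e-05), the order of groups seen for Mapk12 and Map3k20. Of its other probe sets, 1 was called in the same directions (0.91 and -1.08), and 1 near background was not called.

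Dusp22 (JKAP, which acts on Lck in T cells) read 684 and 648 in the anti-CD3 wells, 803 and 850 in the B7-2 wells and 424 and 450 in the BTNL2 wells. It fell 1.89-fold with BTNL2 (log2 change -0.92 ± 0.09, adjusted p = 0.000545). Its rise with B7-2 (0.31 ± 0.09, adjusted p = 0.0449) was lost without any 1 of the 4 arrays (adjusted p = 0.101 to 0.189). Dusp19 fell with BTNL2 from 778 and 753 to 451 and 495 (-0.70 ± 0.09, adjusted p = 0.00203).

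Dusp12 and Dusp11 changed with B7-2 and were not called for the step to BTNL2 in the main fit. Dusp12 read 142 and 138 in the anti-CD3 wells, 225 and 244 in the B7-2 wells and 221 and 234 in the BTNL2 wells, a rise of 1.67-fold with B7-2 (adjusted p = 0.00170). With the mean of its probe sets Dusp12 was not called between the BTNL2 and anti-CD3 wells. Dusp11, whose product acts on RNA rather than on kinases, read 1791 and 1933, 1465 and 1271, and 1135 and 1199. Dusp11 was called lower between the BTNL2 and anti-CD3 wells (log2 change -0.67, adjusted p = 0.00277), at -0.73 to -0.31 in the other settings. For Dusp11 the step from B7-2 to BTNL2 (-0.23, adjusted p = 0.190) was called when the variance prior followed intensity (adjusted p = 0.0303). Its fall with B7-2 (log2 change -0.45 ± 0.10, adjusted p = 0.0211) was lost without any of 3 arrays (adjusted p = 0.0612 to 0.113) and with the mean of its probe sets.

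**Figure D3:**
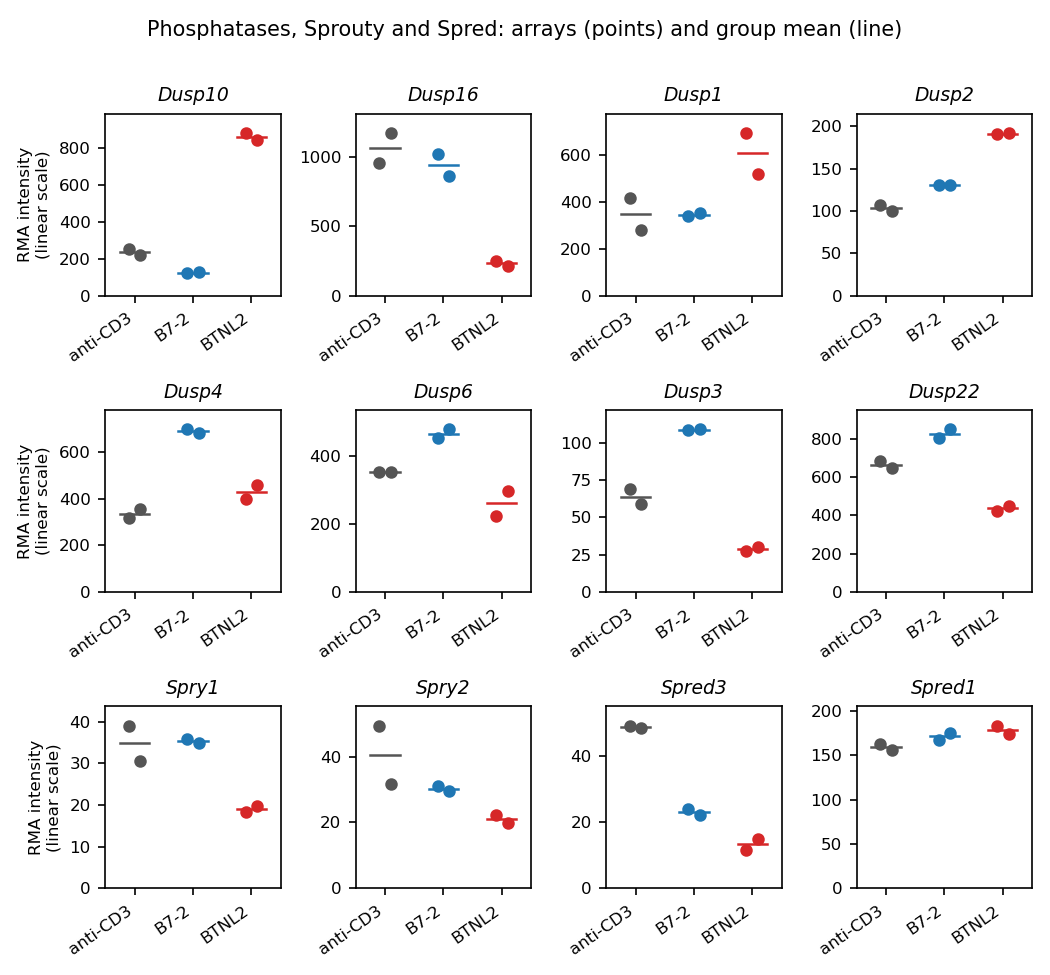
RMA intensity on a linear axis from 0 for 8 phosphatase genes and 4 Sprouty and Spred genes, with 1 point per array, 2 arrays per group, and a line at the group mean. Dusp10 reads 882 and 845 in the BTNL2 wells against 253 at most elsewhere, Dusp16 reads 250 and 216 there against 863 at least elsewhere, and Dusp4, Dusp6, Dusp3 and Dusp22 are highest in the B7-2 wells.

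In all, 9 of the 22 phosphatase genes were called with B7-2 (40.9%; 7 higher, 2 lower), 9 with BTNL2 against B7-2 (40.9%; 3 higher, 6 lower) and 12 between the BTNL2 and anti-CD3 wells (54.5%; 6 higher, 6 lower). These shares lay above the 24.5%, 20.4% and 30.4% of all genes, and no test of that difference was made. The median log2 change was 0.17, -0.16 and 0.08. Dusp26 (6.29 to 9.92) and Dusp15 (6.11 to 8.39), both near background, account for 1 call each, with B7-2 and between the BTNL2 and anti-CD3 wells. Those calls were lost without 2 and 3 of the arrays. Dusp13, Dusp14, Dusp18, Dusp21, Dusp23 and Dusp27 read 4.91 to 20.3 and passed in no comparison with all arrays. Without the second B7-2 array Dusp14 was called lower with B7-2 and higher with BTNL2 (adjusted p = 0.0327 and 0.0247). Without the first anti-CD3 array 5 phosphatase genes were called with B7-2 in place of 9.

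Among the Sprouty and Spred genes, each call of a gene's chosen probe set was downward. Spry1 encodes an inhibitor of Ras and ERK signalling that acts in T cells. It read 39.0 and 30.6 in the anti-CD3 wells, 35.9 and 34.8 in the B7-2 wells and 18.3 and 19.8 in the BTNL2 wells. The first 2 groups overlapped and the BTNL2 arrays lay below both, 1.86-fold under B7-2 (log2 change -0.89 ± 0.13, adjusted p = 0.00325) and 1.82-fold under the anti-CD3 wells (-0.86 ± 0.13, adjusted p = 0.00235).

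Spred3 fell at each step. It read 49.1 and 48.6 in the anti-CD3 wells, 24.0 and 22.2 in the B7-2 wells and 11.6 and 15.0 in the BTNL2 wells. The log2 change was -1.08 ± 0.13 with B7-2 (adjusted p = 0.00162) and -0.81 ± 0.13 with BTNL2 (adjusted p = 0.00539), in sum a fall of 3.71-fold (adjusted p = 9.33e-05). The last values lay toward the nonspecific controls, so the fold of this gene rests on low signal.

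Spry2 read 49.4 and 31.8, 31.1 and 29.5, and 22.2 and 19.7 in the anti-CD3, B7-2 and BTNL2 wells. With all arrays, the outer groups alone differed by the test (log2 change -0.92 ± 0.19, adjusted p = 0.0106), and not without the second BTNL2 array (adjusted p = 0.0631). Without the second anti-CD3 array Spry2 was called lower with B7-2 too (-0.71, adjusted p = 0.0195). Spred1 (156 to 183) and Spred2 (111 to 149) passed in no comparison. The probe sets of Spred1 disagreed in sign between the BTNL2 and anti-CD3 wells (0.17 for the brightest by mean log2, -0.39 for another that was called), and a dimmer set was called higher with B7-2 (0.36, adjusted p = 0.0345). Spry3 (6.64 to 7.81) and Spry4 (11.6 to 14.4) did not pass.

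In counts, 1 of the 7 Sprouty and Spred genes was called with B7-2 (14.3%), 2 with BTNL2 (28.6%) and 3 between the outer groups (42.9%), all lower, beside 24.5%, 20.4% and 30.4% of all genes. The median log2 change was -0.11, -0.10 and -0.13.

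**Figure D4:**
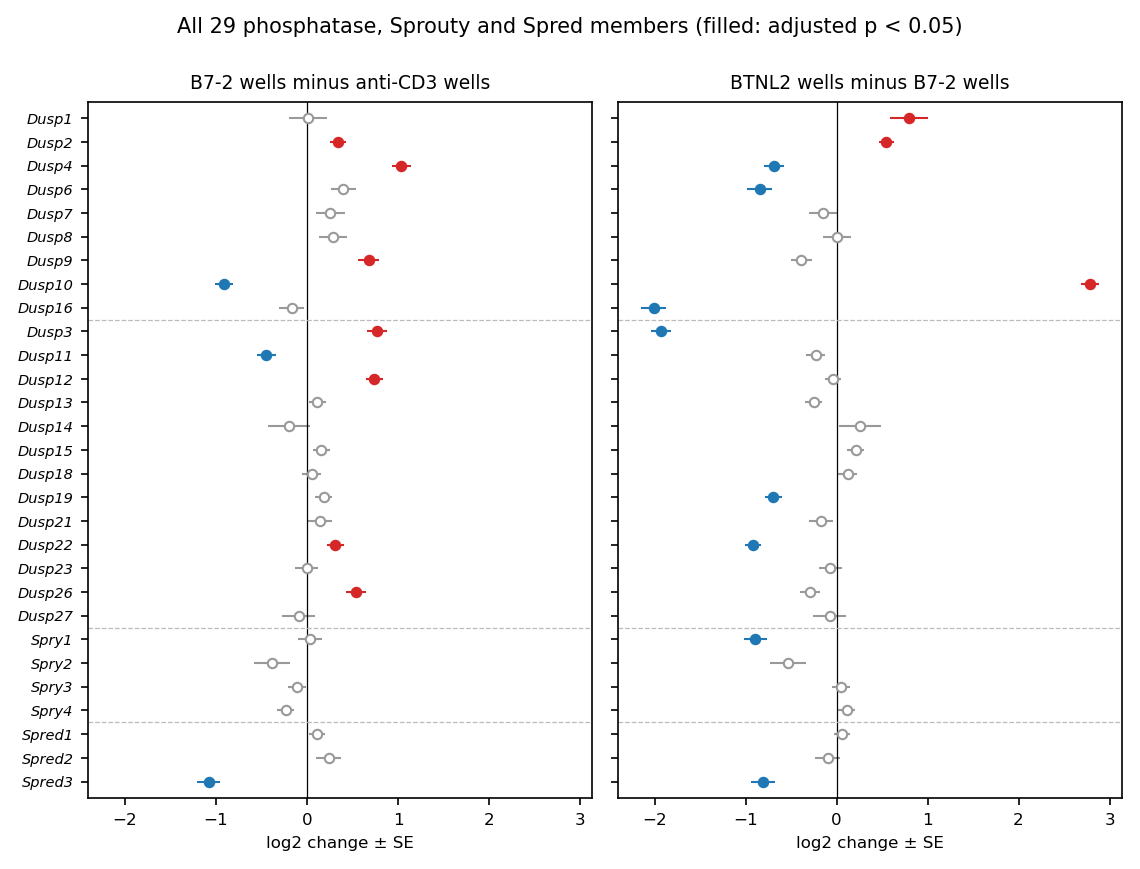
Log2 change ± SE (x axis) of all 29 phosphatase, Sprouty and Spred members (y axis), for the B7-2 wells minus the anti-CD3 wells on the left and the BTNL2 wells minus the B7-2 wells on the right. Filled points passed an adjusted p of 0.05 (red higher, blue lower) and dashed lines separate MAP kinase phosphatases, other dual-specificity phosphatases, Sprouty and Spred: Dusp10 at 2.78 and Dusp16 at -2.01 are the outermost points on the right.

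The rest of the pathway was described by 3 lists, chosen with earlier results of these data known. Of 25 genes that carry the signal to Ras and Raf, 17 were measured: 2 rose and 3 fell with B7-2, and 5 rose and 0 fell with BTNL2 against B7-2 (limma, 7 genes of the list at an unadjusted p under 0.05). That is 29.4% of the list in each comparison, near the 24.5% and 20.4% of all genes. The guanine exchange factor gene Rasgrp1, whose product loads Ras, rose 2.51-fold, the related gene Rasgrp2 5.67-fold and Rras2 3.53-fold. Rasa3, whose product inactivates Ras, rose 4.42-fold, from 61.1 and 69.3 to 328 and 252, and the adaptor gene Lat 1.32-fold. The median log2 change of this list with BTNL2 was 0.14.

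Of 22 scaffolds and other regulators, 21 were measured. With B7-2, 4 rose and 2 fell, and with BTNL2, 3 rose and 3 fell, or 28.6% in each, near the 24.5% and 20.4% of all genes. Gadd45a and Gadd45b encode stress proteins that bind MAP3Ks and p38. Gadd45b rose 2.47-fold with B7-2 and was not called for the step to BTNL2 (log2 change 0.33, adjusted p = 0.138), while Gadd45a fell 4.6-fold with BTNL2. Mapk8ip3, a JNK scaffold gene, fell 2.06-fold with BTNL2.

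Of 38 kinases and transcription factors downstream, 34 were measured. With B7-2, 10 rose and 6 fell (47.1%), and with BTNL2, 6 rose and 14 fell (58.8%), beside 24.5% and 20.4% of all genes. With dim genes left out, 38.8% and 32.4% of the genes kept were called. Since the list was chosen with earlier results of these data known, these shares are description only, and their difference was not tested. Ier3, an immediate early gene whose product prolongs ERK signalling, fell 7.8-fold with BTNL2, from 647 and 725 to 71.9 and 107. Etv5, an ETS factor gene that follows ERK activity, fell 4.5-fold, and the AP-1 gene Fosl2 4.32-fold. Phlda1 fell 2.81-fold, Egr1 1.72-fold and Egr2 1.64-fold. By 2-fold or more, 2 genes of this list rose and 6 fell with BTNL2, and the genes named are mainly ones that fell.

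Members of the AP-1 family went opposite ways. Jun fell 2.59-fold with B7-2 and rose 2.93-fold with BTNL2 (652 and 663, 264 and 243, 856 and 644 in the anti-CD3, B7-2 and BTNL2 wells). Junb and Fosl1 rose with B7-2 and fell with BTNL2, 1.72-fold and 2.26-fold. Mapkapk2, the gene of the p38 target MK2, and Rps6ka5, that of the ERK and p38 target MSK1, fell 1.76-fold and 1.95-fold with BTNL2.

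**Figure D5:**
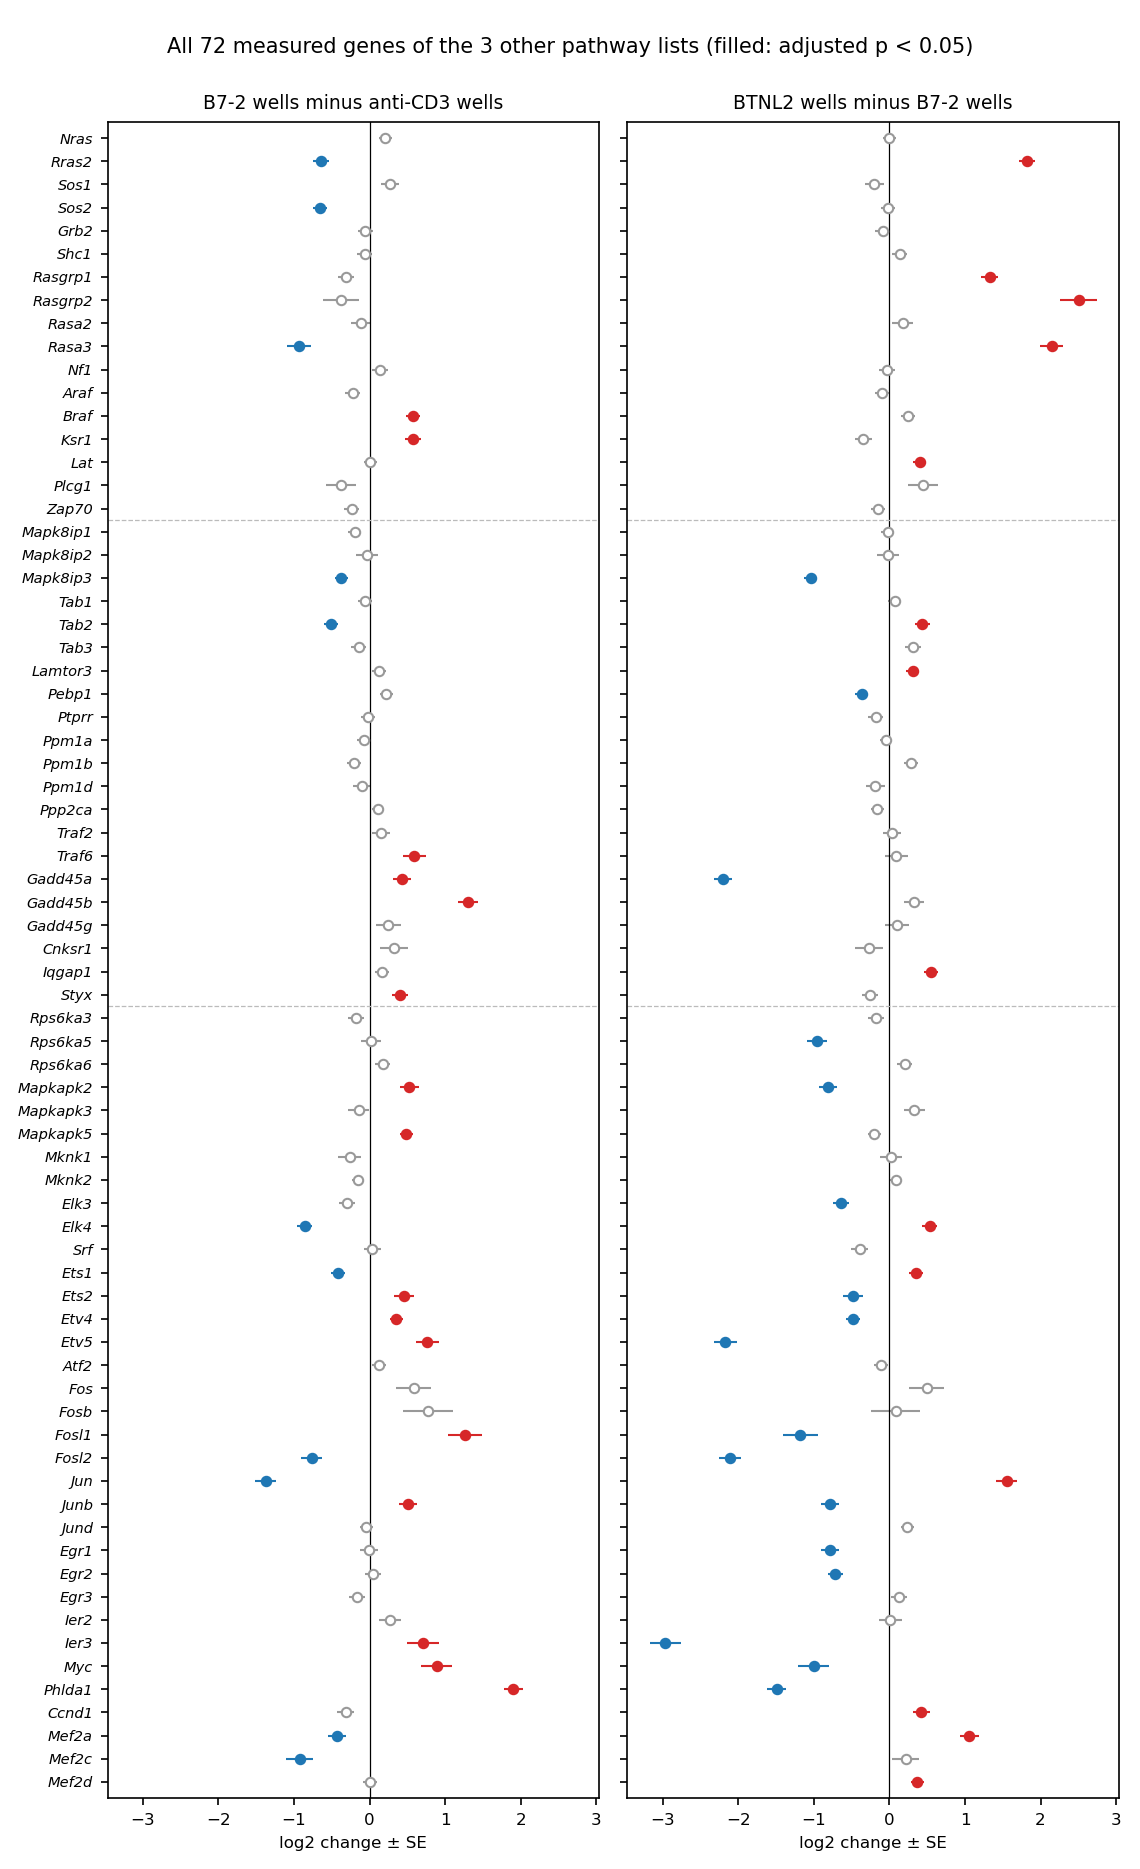
Log2 change ± SE (x axis) of the 72 measured genes of the 3 other pathway lists (y axis), for the B7-2 wells minus the anti-CD3 wells on the left and the BTNL2 wells minus the B7-2 wells on the right. Filled points passed an adjusted p of 0.05 (red higher, blue lower) and dashed lines separate Ras and Raf inputs, scaffolds and regulators, and downstream genes: on the right, 5 inputs are filled, all higher, and 20 downstream genes, 14 of them lower.

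Markers of the cells were read on the same arrays. The T cell genes Cd3d, Cd3e and Cd4 were clear on all 6 arrays, with Cd4 at 1103 to 1705. Of 7 T cell markers, 0 rose and 3 fell with B7-2 (42.9%, beside 24.5% of all genes). With BTNL2 against B7-2, 0 rose and 2 fell (28.6%, beside 20.4%). Of 10 genes that mark NK cells or CD8 T cells, 0 rose and 5 fell with B7-2 (50%), and 8 rose and 0 fell with BTNL2 (80%). Their summed intensity was 3648 to 3782 in the anti-CD3 wells, 3155 to 3173 in the B7-2 wells and 6417 to 7206 in the BTNL2 wells, while the NK receptor gene Ncr1 read 4.75 to 6.62, near the nonspecific controls. Cd8a read 302 and 321, 119 and 107, and 987 and 924 in the 3 groups, the order in which Dusp10 also stood.

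Of 9 measured B cell markers, 0 rose and 6 fell with B7-2 (66.7%, beside 24.5% of all genes). With BTNL2, 6 rose and 1 fell (77.8%, beside 20.4%). The sum of the 9 markers was 1601 to 1815, 856 to 867 and 1469 to 1774, with Pax5 at 6.33 to 8.01. Of 10 myeloid and dendritic markers, 0 were called with B7-2 (limma, 0 at an unadjusted p under 0.05) and only Fcer1g with BTNL2, higher, while Lyz2 read 7.05 to 14.3 and Itgam 6.08 to 9.31. The part of these marker changes in the results for the MAP kinase genes was not tested.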

How the data were processed

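The deposited values are RMA intensities on a linear scale for 45141 probe sets on 6 arrays, 1 per culture. RMA corrects background, quantile-normalizes and summarises probes, which compresses low signals. It is named per the submitters' processing notes, and for its software and version the sources used here give nothing. RNA (50 ng) was amplified and biotin-labelled, per the labels' protocols. Probe sets were named from the platform annotation, with symbols updated through Entrez identifiers against the GRCm38.p6 gene table. Of these, 28898 had 1 symbol, 551 several and 15588 none.

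Values were log2-transformed without a pseudocount, and all 6 arrays were fitted by group in limma 3.58.1 (R 4.3.3, lmFit and eBayes, two-sided, 3 residual degrees of freedom), with Benjamini-Hochberg adjustment over 17097 genes. The fit was tested on simulated data. An exact permutation test of 2 against 2 arrays cannot go below p = 0.333. Replicate numbers did not pair arrays, with correlations of deviations of -0.06, -0.00097 and -0.03. Text names called members, the remaining members by role, and called genes of the other lists. Members and lists were chosen with earlier results of these data known. Alternatives covered scaling, variance prior, dim genes, probe set choice, arrays in the fit, a pseudocount, a replicate block and leaving out each array.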

Additional observations from a re-analysis of the deposited data

How the results depend on the processing

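Counts of members called lay within 1.5 times the main count in the settings tried, except as follows. Leaving out 1 array at a time gave 13 to 15 members with B7-2 in place of 20, of which 5 to 7 were phosphatases in place of 9 and 1 to 2 Sprouty or Spred genes in place of 1. With BTNL2 against B7-2 it gave 4 to 8 kinases in place of 8. Testing each probe set gave 2 Sprouty or Spred genes with B7-2. In that setting, which takes another probe set of the gene, the sign turned between the BTNL2 and anti-CD3 wells for Mapk9 (0.32), Map2k2 (0.33), Dusp8 (-0.43) and Spred1 (-0.39). The replicate block, fitted although the numbers did not pair the arrays, gave 17, 18 and 27 members in place of 20, 19 and 28. With 2 arrays per group, and for members close to the nonspecific controls, small changes near an adjusted p of 0.05 are uncertain.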
